A study of Mus musculus with 18 samples.

Results

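The genes of the cytosolic ribosomal proteins were compared across the cell types of the adult mouse stomach, from the dividing progenitors of the isthmus to the differentiated pit, neck, chief and parietal cells. The members were all gene symbols that start with Rpl or Rps followed by a number, with Rpsa, Rplp0, Rplp1 and Rplp2 and without the kinases named Rps6k and the pseudogenes marked -ps. This rule, which uses no measured value, gave 93 of the 31201 gene names of the series. Of these, 77 are core members, the proteins of the small subunit (31), the large subunit (43) and the P-stalk of the large subunit (3). The other 16 include 7 paralogs of a core member (Rpl3l, Rpl10l, Rpl22l1, Rpl36al, Rpl39l, Rps27l and Rps4l). A further 7 are copies or genes with such a name (Rpl6l, Rpl32l, Rpl37rt, Rps3a2, Rps3a3, Rps23rg1 and Rps27rt). Among these, Rpl6l, Rpl32l, Rps3a2 and Rps3a3 are annotated as processed pseudogenes, and Rpl37rt as both a lncRNA and a processed pseudogene. They carry no -ps mark, so the rule keeps them. The last 2 are like-named genes that are not counted as core members or paralogs here (Rpl7l1 and Rps19bp1).

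The cells came from untreated wild-type male C57BL/6J mice that were 10 weeks old, and were measured by Quartz-Seq2, a plate-based single-cell RNA-seq method that counts unique molecular identifiers (UMIs). Dataset 1 held cells of the corpus and the antrum from pools 1 and 2, each a mix of 3 mice, sorted into 6 plates after removal of dead cells, for which the labels name ToPro3 and the methods of the study PI, and 491 cells in 15 clusters were kept. Dataset 2 held corpus cells of 2 other pools of 3 mice (pools K and T), sorted as Hoechst33342-positive and ToPro3-negative cells into 12 plates. Of these, 3993 cells in 20 clusters were kept. In both datasets the 2 pools were prepared by 2 different operators, so pool and operator cannot be told apart. The clusters are those of the study, as are the names of the types compared in dataset 2 and of the pit, neck and parietal types of dataset 1, while names that end in -like were given here from marker genes, and no treatment separates the pools, so each comparison is between cell types of the same mice.

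The tables held 19906729 UMIs in dataset 1 and 139611402 in dataset 2, with 2551126 to 4773020 UMIs per plate in dataset 1 and 10463555 to 12745419 in dataset 2. The median was 38757 UMIs per cell in dataset 1 and 31020 in dataset 2. In dataset 2 the isthmus comprised clusters 3, 5, 6, 9 and 11, the neck clusters 0, 2, 7 and 12, pre-pit cluster 4, mature pit cluster 13, chief cluster 10 and parietal clusters 1 and 8. The summed level of 7 proliferation genes was 724 to 2797 CPM (UMIs of a gene per 1000000 UMIs) in isthmus clusters 3, 5, 6 and 9 but 270 in isthmus cluster 11, against 67.2 to 210 in the other epithelial clusters. In neck cluster 12 the 4 chief markers summed to 213677 CPM against 193706 in the chief cluster, and the 4 neck markers to 6123 against 2395. The study found Muc6 and the chief marker Cblif in this cluster and proposed a state between neck and chief cells. It also reported mRNA of Pgc, which is among the 4 chief markers, in most epithelial cells of the stomach. The isthmus clusters also carried 19619 to 36140 CPM of the 4 mature pit markers and 34022 to 63877 of the 4 chief markers, and the part of such RNA in the results was not tested.

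A ribosome is built from a small and a large subunit, each an assembly of ribosomal RNA and many proteins, most of which are needed in equal numbers. The P-stalk (Rplp0, Rplp1 and Rplp2) is the flexible arm of the large subunit that recruits the elongation factors. Dividing cells must make a full set of new ribosomes with each cycle, while chief cells hold large amounts of rough endoplasmic reticulum for pepsinogen secretion and parietal cells are packed with mitochondria for acid secretion. The mRNAs of ribosomal proteins begin with a run of pyrimidines, the 5′ terminal oligopyrimidine (TOP) motif, through which mTORC1 and LARP1 regulate their translation.

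The start site of these genes was read in the promoter sequences of RefSeq for GRCm38.p6, which is not the GRCm39 build used for the counts. The windows printed here hold 15 bases before and 15 bases from the annotated start, 5′ to 3′ on the gene's strand, for genes on which the results turn, and the capitals mark the longest run of C or T near the start, which in Rpl4 and Rpl13a goes on beyond the window.
Rpl12, chr2:32961697-32961726, plus strand: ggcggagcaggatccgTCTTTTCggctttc
Rpl13a, chr7:45128731-45128760, minus strand: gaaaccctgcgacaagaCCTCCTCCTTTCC
Rps4x, chrX:102189377-102189406, minus strand: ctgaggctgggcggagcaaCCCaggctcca
Rpl4, chr9:64173372-64173401, plus strand: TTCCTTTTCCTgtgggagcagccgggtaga
Rpl22l1, chr3:28805493-28805522, plus strand: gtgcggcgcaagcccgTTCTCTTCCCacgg
Rps27l, chr9:66946071-66946100, plus strand: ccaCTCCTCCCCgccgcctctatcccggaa
Rps23rg1, chr8:3567983-3568012, plus strand: gctttgcagagagTCTTTCTCTCaccccag
A run of at least 6 pyrimidines (C or T on the gene's strand) within 10 bases of the start was found in 36 of 67 promoters of 57 matched core members (53.7%), in 6 of 14 promoters of 12 other members (42.9%), and in 9592 of 32851 promoters of all genes (29.2%). The run of Rpl4 lies just before the annotated start and that of Rpl12 just after it, and in Rps4x the longest run that reaches within 10 bases of the start has 3 bases. A match is a description of these letters and no test of TOP regulation.

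Ribosomal protein genes have many processed copies in the genome, and reads that align to several places may not be counted. Rps6 had 92 UMIs and Rpl36 47 UMIs over the 6 types of dataset 2, so a low count of a member does not show a low level of its mRNA, and each gene is compared between cell types rather than with other genes. Of the 93 members, 86 passed the filter on low counts in dataset 2 and 80 in dataset 1. The 7 that did not pass in dataset 2 were Rpl10l, Rpl36, Rpl39l, Rpl3l, Rpl6l, Rps27rt and Rps6, with 7 to 106 UMIs each. Several members overlap a gene on the other strand (Rpl12 overlaps Lrsam1, Rpl28 overlaps Ube2s, and Rps4l overlaps Tmtc1). The sources used here do not give whether strand was used in the counting, and the part of such reads in the results was not tested.

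Of all UMIs, 3.17% in dataset 1 and 3.42% in dataset 2 fell on members. In dataset 2 the share was 4.44% in pool K and 4.48% in pool T for isthmus cells and 4.46% and 4.43% for pre-pit cells, which did not differ beyond the spread between the pools. Neck cells had 3.76% and 3.55%, and mature pit cells 3.33% and 3.02%. Chief cells had 1.76% in each pool and parietal cells 1.73% and 1.81%. The types therefore fell into an upper pair, isthmus and pre-pit, a middle pair and a lower pair, with no overlap between these pairs in either pool. The share of isthmus cells was above the mean of the 5 other types by 1.43 percentage points in pool K and by 1.56 in pool T (SD 0.0908, n = 2 pools). With 2 pools on each side the exact two-sided permutation test cannot go below p = 0.33, so the shares are given as values.

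**Figure D1:**
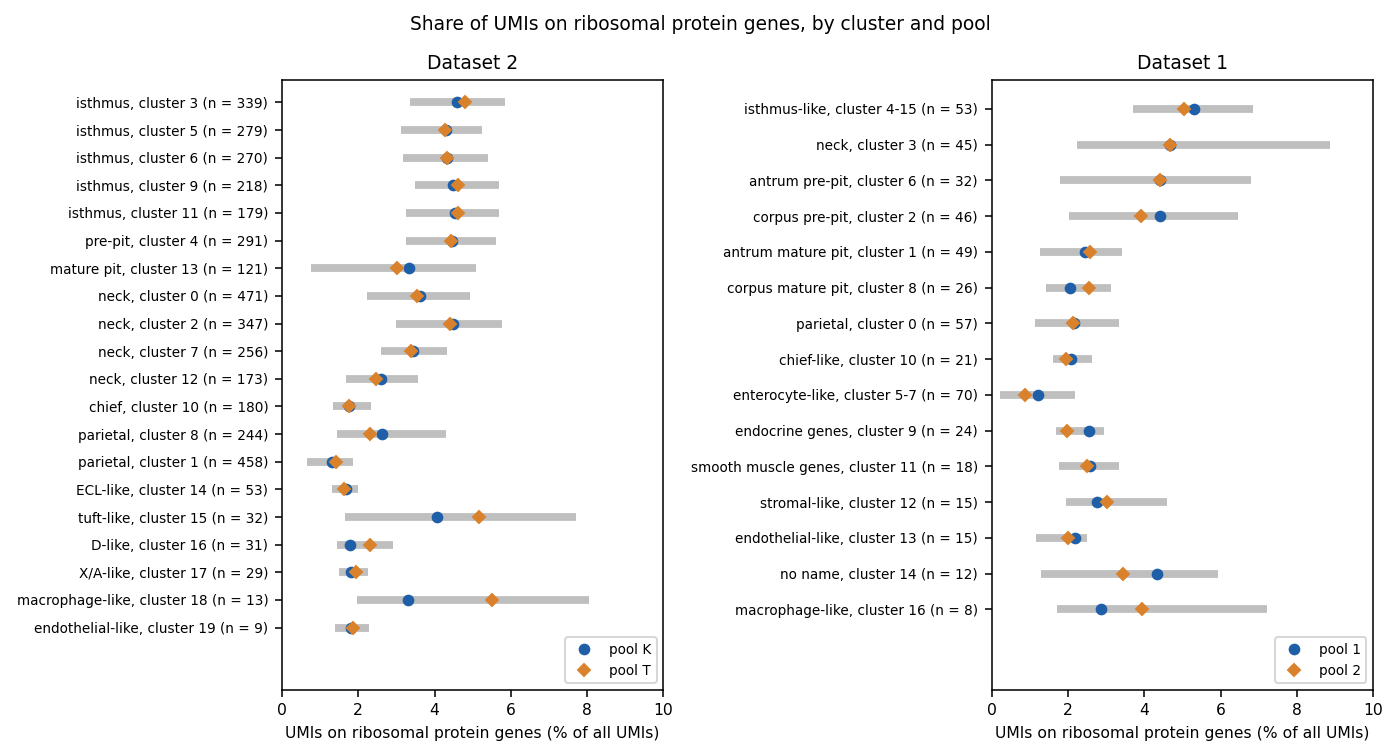
Percent of all UMIs that fell on members (x axis) in each cluster (rows) of dataset 1 and dataset 2, with a mark for each pool. In dataset 2 the 5 isthmus clusters lie between 4.27% and 4.79% and parietal cluster 1 lies at 1.30% and 1.42%.

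Within the isthmus the share hardly differed between clusters, from 4.31% and 4.27% in cluster 5 to 4.60% and 4.79% in cluster 3. The neck clusters were less alike, with 4.49% and 4.39% in cluster 2, 3.61% and 3.54% in cluster 0, 3.42% and 3.40% in cluster 7, and 2.60% and 2.46% in cluster 12. Of the other cells of dataset 2, the tuft-like cluster 15 had 4.06% and 5.17%, and the macrophage-like cluster 18, with 13 cells, 3.31% and 5.50%. The endocrine clusters were lower, with 1.69% and 1.63% in the ECL-like cluster 14, 1.79% and 2.31% in the D-like cluster 16 and 1.82% and 1.95% in the X/A-like cluster 17. The tuft-like cells were the only cells outside the isthmus, pre-pit and neck clusters with a share above 4% in both pools.

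A share of all UMIs falls when a few very abundant mRNAs take more of the total. Outside the mitochondrial genes and the 20 most abundant genes of each cluster, the share was 5.98% and 5.96% in isthmus cells, 6.59% and 6.58% in pre-pit cells, 5.58% and 5.34% in neck cells, 5.13% and 4.72% in mature pit cells, 4.36% and 4.44% in chief cells and 2.68% and 2.75% in parietal cells. On this measure chief cells stood well above parietal cells, and pre-pit cells above isthmus cells, in both pools.

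To compare each member between types, UMIs were summed per type and pool and tested with edgeR's quasi-likelihood test after TMM scaling, with Benjamini-Hochberg adjustment across every gene of the fit. Genes with an adjusted p below 0.05 are called. The shares of all genes given as background belong to this fit, not to the other scalings or fits. All levels of single genes are TMM-scaled CPM unless said otherwise, all differences are on the log2 scale, and values for 2 pools are given in the order K and T. These counts also made the clusters, and the p-values therefore describe only how far apart the types are. The scale decides part of the direction: when the sums were scaled to total UMIs instead, the median of all genes moved to 0.43 in isthmus cells against the mean of the others, to 0.95 against chief, 0.55 against parietal, 0.42 against mature pit, 0.21 against pre-pit and 0.01 against neck cells. All genes called in the first of these comparisons then changed from 3911 higher and 3213 lower to 7904 higher and 878 lower.

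In isthmus cells against the mean of the 5 other types, 69 of 86 members were called higher and 2 lower, where 28.1% of all 13894 genes were called higher and 23.1% lower. The median member was higher by 0.31 (1.24-fold), against 0.02 for all genes. The excess of members over all genes lay between 0.29 and 0.33 in all scalings and other fits that kept the filter on low counts. Core members of the small subunit were called higher in 25 of 30 cases with a median of 0.32, those of the large subunit in 35 of 42 with a median of 0.33, and all 3 stalk genes with a median of 0.30. No core member was called lower.

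Among the small subunit genes, Rps19, the gene most often mutated in Diamond-Blackfan anemia in humans, had 600 and 602 CPM in isthmus, 681 and 698 in pre-pit, 512 and 473 in mature pit, 535 and 507 in neck, 284 and 282 in chief and 231 and 234 in parietal cells. Isthmus cells lay above every type but pre-pit in both pools, and the difference from the mean of the others was 0.55 ± 0.06 (SE, adjusted p = 3.7e-06). Rps3, which also acts in DNA repair, differed by 0.34 ± 0.06 (adjusted p = 0.00047). The smallest called difference, that of Rps25, was 0.16 ± 0.06 (adjusted p = 0.0495).

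Among the large subunit genes, Rpl12, a protein at the base of the P-stalk, had 54.0 and 56.6 CPM in isthmus, 54.2 and 47.6 in pre-pit, 44.5 and 35.3 in mature pit, 42.0 and 47.8 in neck, 28.5 and 25.4 in chief and 16.8 and 16.4 in parietal cells. Isthmus and pre-pit cells overlapped, and chief and parietal cells lay below all others. Rpl12 had the largest difference of the core members, 0.74 ± 0.07 (adjusted p = 2.1e-06), and Rpl28 followed with 0.64 ± 0.12 (adjusted p = 0.00062). Rpl4, a protein that lines the exit tunnel, had 1753 and 1799 in isthmus, 2093 and 2183 in pre-pit, 1751 and 1596 in mature pit, 1435 and 1398 in neck, 1423 and 1397 in chief and 885 and 960 in parietal cells, a difference of 0.28 ± 0.06 (adjusted p = 0.0022). Of the stalk, Rplp0 differed by 0.30 ± 0.06, Rplp1 by 0.20 ± 0.06 and Rplp2 by 0.34 ± 0.06, with adjusted p of 0.0009, 0.016 and 0.00056.

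The 12 core members that were not called were Rpl5, Rpl7a, Rpl10, Rpl19, Rpl24, Rpl38, Rpl41, Rps14, Rps21, Rps27, Rps27a and Rps28, named here for completeness. Rpl5, which with Rpl11 forms the particle that binds Mdm2, had 43.5 and 43.3 CPM in isthmus, 73.4 and 64.9 in pre-pit, 69.0 and 61.3 in mature pit, 42.0 and 36.5 in neck, 41.9 and 36.6 in chief and 29.3 and 31.5 in parietal cells. Its 2 pit types stood above the 4 other types in both pools, and its difference between isthmus and the mean of the others was -0.09 ± 0.07 (adjusted p = 0.35).

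**Figure D2:**
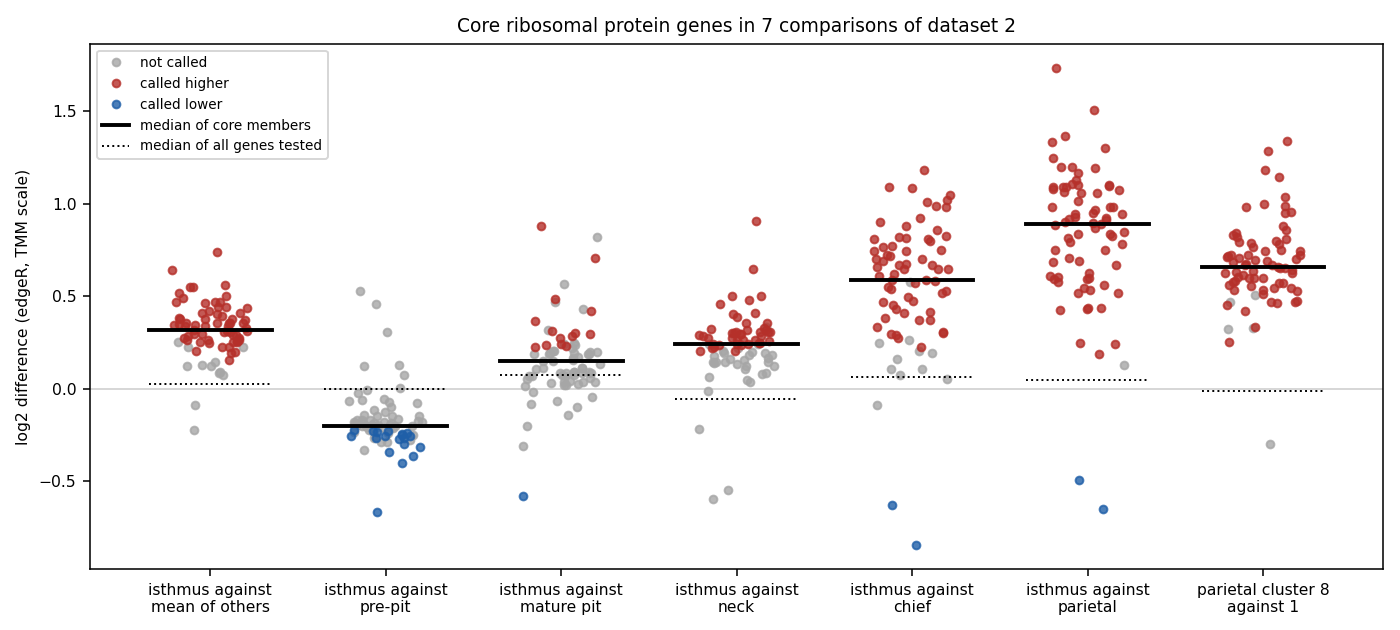
The log2 difference (y axis, edgeR on the TMM scale) of each core member (points, coloured by call) in 7 comparisons of dataset 2, with the median of the core members (thick line) and of all genes tested (dotted line). The core median runs from -0.20 against pre-pit to 0.89 against parietal cells.

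The distance differed between the differentiated types. These comparisons share the isthmus sums, so their values are set side by side. Against neck cells 48 of 86 members were called higher and 0 lower, with a median of 0.24 (background 24.3% higher and 26.4% lower). Against chief cells 66 were called higher and 5 lower, with a median of 0.57 (29.5% and 25.9%). Against parietal cells 79 were called higher and 2 lower, with a median of 0.86 or 1.81-fold (36.7% and 35.2%). The order of chief and parietal cells in these medians is that of the TMM scale. Scaling to total UMIs moves the median of all genes more against chief than against parietal cells.

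Against mature pit cells 17 members were called higher and 3 lower, with a median of 0.12 (20.1% and 17.9% of all genes). As shares of the 86 members, the higher calls in this fit were near the background and the lower calls below it. With the pool as a block the counts were 28 and 5, and with scaling to total UMIs 70 and 1. These counts have no background from their own fits beside them, so they were not set against all genes. The 17 included Rpl28 (0.88 ± 0.23, adjusted p = 0.0081) and Rpl10a (0.71 ± 0.16, adjusted p = 0.0031). Rpl10a had a mean of 19.3 CPM in isthmus cells and 12.7 and 11.1 in the pools of mature pit cells. Rps4l (-0.78 ± 0.16) and Rpl5 (-0.58 ± 0.11) were lower in isthmus cells, with adjusted p of 0.0018 and 0.00083.

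Against pre-pit cells the direction turned on the TMM scale, with 1 member called higher and 19 lower and a median of -0.20, but scaled to total UMIs 6 were called higher and 1 lower with a median of 0.01 (background on the TMM scale 15.5% higher and 12.3% lower). With the pool as a block the counts were 2 and 45, without a background from that fit. The median of the members minus that of all genes lay between -0.21 and -0.18 in all scalings and other fits that kept the filter on low counts. Among the largest called differences were those of Rpl5 (-0.67 ± 0.10, adjusted p = 0.00019) and Rpl17 (-0.37 ± 0.10, adjusted p = 0.013). Of the 75 core members tested, 65 had their highest mean level in pre-pit cells, 5 in isthmus, 2 in chief, 2 in parietal and 1 in neck cells on the TMM scale, an order of pre-pit and isthmus that the scaling to total UMIs does not keep for the median. Their lowest mean level on the TMM scale was in parietal cells for 62, in chief for 12 and in mature pit cells for 1. As shares of all UMIs, chief and parietal cells were close, so the order of these types depends on the scale.

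Along the pit lineage, members were lower in mature pit than in pre-pit cells. In mature pit cells 0 members were called higher and 40 lower than in pre-pit cells, with a median of -0.33 (0.79-fold), where 6.52% of all genes were called higher and 3.84% lower. All 3 stalk genes, 17 of 30 small subunit genes and 19 of 42 large subunit genes were called lower. Rpl10a had the largest of these differences (-0.89 ± 0.17, adjusted p = 0.0048), with 22.6 and 21.2 CPM in pre-pit against 12.7 and 11.1 in mature pit cells. Rpl13a, which also takes part in the interferon-induced silencing of some mRNAs, followed with -0.59 ± 0.10 (adjusted p = 0.0026), from 282 and 263 to 204 and 160. The copy Rps3a2 was called too (-0.69 ± 0.19, adjusted p = 0.03), and Rpl23 and Rpl37 were among those with the smallest called differences, both -0.30 ± 0.08 (adjusted p = 0.037 and 0.034).

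In the zymogenic lineage, chief cells were set against neck cells. Of 86 members 5 were called higher and 38 lower in chief cells, with a median of -0.31 (background 18.6% higher and 19.9% lower). Scaled to total UMIs, 1 was called higher and 80 lower, and the median of all genes was then -0.89. Small subunit genes were called lower in 20 of 30 cases and large subunit genes in 16 of 42. Rpl39, a small protein of the exit tunnel, had 225 and 226 CPM in neck and 122 and 121 in chief cells (-0.89 ± 0.10, adjusted p = 7.1e-06). Rps27 was called lower as well (-1.12 ± 0.39, adjusted p = 0.037), but at 8.82 and 14.9 against 3.35 and 6.93 its pools were far apart.

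A few members ran against the rest in chief cells. Rpl41, the shortest ribosomal protein, had 1144 and 1095 CPM in chief cells, above the 391 to 831 of every other type and pool. It was called lower in isthmus than in chief cells (-0.63 ± 0.10, adjusted p = 0.00011) on the TMM scale, but its difference was 0.25 when scaled to total UMIs. Rpl10, which is loaded late onto the large subunit, had 46.4 and 56.2 in chief cells against 24.1 and 33.4 in isthmus cells and 12.2 and 11.1 in parietal cells, and its difference between isthmus and chief cells was -0.85 ± 0.18 (adjusted p = 0.0014) on the TMM scale and 0.03 on total UMIs. Relative to the median member, Rpl41 stood apart by -1.20 and Rpl10 by -1.42 in this comparison.

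The largest differences from parietal cells were those of Rpl12 (1.73 ± 0.10, adjusted p = 2.8e-09), Rps4x (1.51 ± 0.10, adjusted p = 6e-09) and Rps19 (1.37 ± 0.08, adjusted p = 2.4e-09), setting aside Rps23rg1, which had few UMIs. Rps4x, the X-linked copy of the small subunit protein eS4, had 806 and 774 CPM in isthmus and 288 and 267 in parietal cells. Rps29 was higher in parietal cells, with 32.3 and 34.9 against 23.9 and 23.8 in isthmus cells (-0.49 ± 0.11, adjusted p = 0.0012), but its difference was 0.01 when scaled to total UMIs. Rps27 was higher in parietal cells too (-0.65 ± 0.23, adjusted p = 0.023). Rps29 was also the core member that stood furthest above neck cells (0.91 ± 0.12, adjusted p = 3.1e-05), where it had 13.6 and 11.9, followed by Rpl27 (0.65 ± 0.14, adjusted p = 0.0018).

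The low share of parietal cells was not even over these cells. Parietal cluster 8 had a share of 2.63% and 2.31% and cluster 1 of 1.30% and 1.42%. In cluster 8, 75 of 86 members were called higher than in cluster 1 and 0 lower, with a median of 0.64 or 1.56-fold, where 12.3% of all genes were called higher and 14.9% lower. Rpl13a had 286 and 249 CPM in cluster 8 and 105 and 106 in cluster 1 (1.34 ± 0.10, adjusted p = 7.9e-10). Rpl12 had 29.2 and 26.0 against 12.1 and 10.3 (1.28 ± 0.14, adjusted p = 4.3e-07), and Rpsa, which is also the laminin receptor, differed by 1.18 ± 0.09 (adjusted p = 1.7e-09). Rps21 had the smallest called difference, 0.25 ± 0.08 (adjusted p = 0.028).

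Mitochondrial genes moved with this difference. They took 22.9% and 21.7% of the UMIs in cluster 1 and 12.5% and 13.5% in cluster 8. Over the 702 parietal cells of dataset 2 the share of members had a Spearman correlation of -0.81 with the mitochondrial percent, and of -0.72 over the 57 parietal cells of dataset 1. These are descriptions, since both are shares of the same total, and the part of the mitochondrial RNA in the result was not tested. With the mitochondrial UMIs left out of the total, 77 members were called higher and 0 lower. This count has no background from its own fit beside it, so it was not set against all genes.

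In neck cluster 12, the neck cluster with the highest sum of chief markers, 0 members were called higher and 51 lower than in neck clusters 0, 2 and 7, with a median of -0.38 (background 5.12% higher and 5.17% lower). All 51 were core members, 24 of 30 of the small subunit, 24 of 42 of the large subunit and the 3 stalk genes. Rps12 had 26.6 and 29.9 CPM in cluster 12 against 53.2 and 54.8 in cluster 0, 51.5 and 46.9 in cluster 2 and 33.6 and 44.5 in cluster 7 (-0.73 ± 0.16, adjusted p = 0.0025). Rpl23a (-0.73 ± 0.23, adjusted p = 0.039) and Rps7 (-0.65 ± 0.15, adjusted p = 0.0057) had differences of similar size.

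Whether the phase of the cell cycle goes with the members was tested within the isthmus. The phase called in the deposited annotation was G1 in 172, S in 489 and G2/M in 624 of the 1285 isthmus cells. The share of members was 4.60% and 4.66% in G1, 4.56% and 4.63% in S and 4.32% and 4.35% in G2/M cells. Per cell, members had on average 1555 and 1624 UMIs in G1 and 2009 and 1981 in G2/M cells, in which all UMIs were higher as well, with a median of 43132 per cell in pool K against 29858 in G1 cells.

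In S and G2/M cells against G1 cells 1 member was called higher and 3 lower, with a median of -0.05 (background 15.3% and 11.8%), and with the pool as a block 2 higher and 5 lower. DESeq2 called 0 higher and 3 lower. The members lower in the cycling phases were Rps27 (-0.81 ± 0.22, adjusted p = 0.025), Rpl22l1 (-0.31 ± 0.07, adjusted p = 0.015) and Rpl13a (-0.27 ± 0.07, adjusted p = 0.019). Rps19bp1, a nucleolar protein that binds Rps19, was higher (0.28 ± 0.09, adjusted p = 0.039). In S cells alone 0 members were called higher and 2 lower than in G1 cells (background 15.2% and 11.2%), and in G2/M cells 3 were called higher and 3 lower (15.1% and 11.5%). As shares of the 86 members, these counts lay below the background of their comparison.

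Isthmus cluster 11, in which the proliferation genes were low, was close to the other isthmus clusters for the members. Its cells were mostly in G1, so this comparison draws largely on the cells of the phase comparison and is not independent of it. There 5 were called higher and 2 lower, with a median of 0.05 (background 14.6% and 14.8%). The 5 were Rps27 (0.89 ± 0.23), Rpl10a (0.42 ± 0.14), Rpl5 (0.31 ± 0.09), Rpl22l1 (0.30 ± 0.09) and Rpl13a (0.23 ± 0.07), with adjusted p from 0.0043 to 0.029. Rps27 had 18.4 and 12.5 CPM in cluster 11 and 4.80 to 11.8 in the 4 other isthmus clusters, without overlap between them. Rpl7l1 (-0.32 ± 0.08) and Rps19bp1 (-0.27 ± 0.09) were lower, with adjusted p of 0.0049 and 0.033.

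Dataset 1 gave a similar comparison in other mice, with antrum pre-pit and mature pit cells among the other types and without chief cells. The isthmus-like cluster, a name that rests on Stmn1, Hmgb2 and Tcf19, had a share of 5.31% in pool 1 and 5.04% in pool 2. Neck cells had 4.67% in each pool, antrum pre-pit cells 4.42% in each, corpus pre-pit cells 4.40% and 3.92%, antrum mature pit cells 2.44% and 2.59%, corpus mature pit cells 2.06% and 2.54% and parietal cells 2.17% and 2.14%. The isthmus-like cells lay above all 6 other types in both pools, by 1.95 and 1.66 percentage points above their mean (SD 0.205, n = 2 pools). Between corpus and antrum, neither the pre-pit nor the mature pit cells differed by more than the spread between the pools.

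In the isthmus-like cells 58 of 80 members were called higher than in the mean of the 6 other types and 0 lower, with a median of 0.43 or 1.35-fold (background 24.1% higher and 16.5% lower). They were 22 of 29 small subunit genes, 28 of 40 large subunit genes and the 3 stalk genes among the core members. Rpl12 again had the largest called difference, 1.13 ± 0.18 (adjusted p = 6.5e-05), with 39.5 and 57.0 CPM in isthmus-like cells, 51.0 and 49.1 in neck cells and 7.46 to 13.9 in the mature pit cells of both regions. Rpl21 (0.81 ± 0.29, adjusted p = 0.031) and Rpl13a (0.77 ± 0.10, adjusted p = 5.4e-06) followed. Without pool 1 the count was 34.

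Of the 80 members tested in both datasets, 53 were called higher in both, 14 in dataset 2 alone and 5 in dataset 1 alone, and 75 lay above 0 in both. The 2 members called lower in dataset 2, Rps27l and Rpl36al, were not called in dataset 1 (0.03 ± 0.08 and -0.10 ± 0.12, adjusted p = 0.79 and 0.56). Rpl5 differed by 0.55 ± 0.20 (adjusted p = 0.036) in dataset 1 and by -0.09 ± 0.07 in dataset 2, where the other types were not the same ones. The difference between the datasets was not tested.

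**Figure D3:**
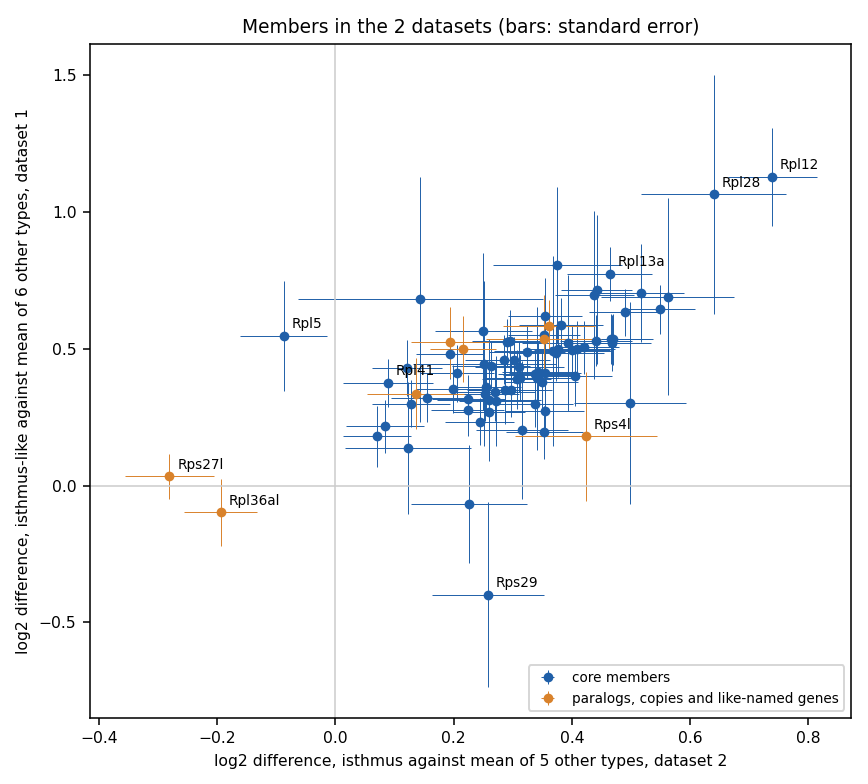
Log2 difference between isthmus and the mean of the other types in dataset 2 (x axis) and between isthmus-like cells and the mean of the other types in dataset 1 (y axis) for the 80 members tested in both, with standard errors as bars. Most points lie in the upper right, with 75 of 80 above 0 on both axes, and Rps27l and Rpl36al lie to the left.

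Of the 6 types of dataset 2, Rps27l was highest in chief cells and Rps4l in mature pit cells. Rps27l, a paralog of Rps27 that p53 induces, had 276 and 301 CPM in isthmus, 322 and 365 in pre-pit, 341 and 362 in mature pit, 216 and 214 in neck, 603 and 628 in chief and 307 and 354 in parietal cells. Chief cells lay above every other type and neck cells below every other type in both pools. In isthmus cells against the mean of the others the difference was -0.28 ± 0.08 (adjusted p = 0.0069) on the TMM scale, and it turned to 0.12 when scaled to total UMIs. In chief against neck cells it was 1.52 ± 0.10 (adjusted p = 5.9e-08), which is 1.83 above the median member. Rps27 itself had 3.35 to 14.9 CPM over the types and pools.

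Rps4l, the autosomal paralog of Rps4x, had 57.3 and 72.0 CPM in isthmus, 65.4 and 88.8 in pre-pit, 100.2 and 122 in mature pit, 48.4 and 52.5 in neck, 11.2 and 18.9 in chief and 35.1 and 41.8 in parietal cells. Mature pit cells lay above and chief cells below every other type in both pools, with a ratio of the means of 7.38. In isthmus cells it was higher than in chief cells by 2.05 ± 0.24 (adjusted p = 7.8e-06) and lower than in mature pit cells (-0.78 ± 0.16), while Rps4x was higher than in mature pit cells. Chief cells differed from neck cells by -1.69 ± 0.25 (adjusted p = 0.00012). In the ECL-like cluster 14, which is outside the fit, Rps4l had 129 and 120 CPM.

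Rpl22l1, the paralog of Rpl22, had 164 and 183 CPM in isthmus, 151 and 177 in pre-pit, 129 and 126 in mature pit, 173 and 196 in neck, 178 and 160 in chief and 64.3 and 73.1 in parietal cells. Isthmus, pre-pit, neck and chief cells overlapped, and parietal cells lay lowest. It was higher in isthmus than in parietal cells by 1.34 ± 0.11 (adjusted p = 5.1e-08) and than in the mean of the others by 0.36 ± 0.08 (adjusted p = 0.0015), and it was lower in S and G2/M than in G1 isthmus cells. Rpl22 had 507 and 527 in isthmus, 425 and 432 in neck and 249 and 273 in chief cells, without overlap between these types.

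Rpl36al, the paralog of Rpl36a, had 105 and 91.7 CPM in chief cells and 60.5 to 77.6 in all other types and pools. It was lower in isthmus than in chief cells (-0.60 ± 0.09, adjusted p = 6.7e-05) and than in the mean of the others (-0.19 ± 0.06, adjusted p = 0.018) on the TMM scale, but higher by 0.28 and 0.21 when scaled to total UMIs. Rpl36a was highest in pre-pit and isthmus cells, with 21.1 and 19.6 and 20.1 and 18.7, and had 9.91 and 9.75 in parietal cells. Of the 2 like-named genes, Rpl7l1, a protein of the nucleolus, had 126 and 138 in chief, 101 and 103 in isthmus and 62.6 and 64.7 in parietal cells. Its difference between isthmus and chief cells was -0.37 ± 0.08 (adjusted p = 0.0013) but 0.51 on total UMIs. Rps19bp1 had 40.2 and 39.4 in isthmus and 28.2 and 29.3 in neck cells (0.47 ± 0.08, adjusted p = 0.00042).

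**Figure D4:**
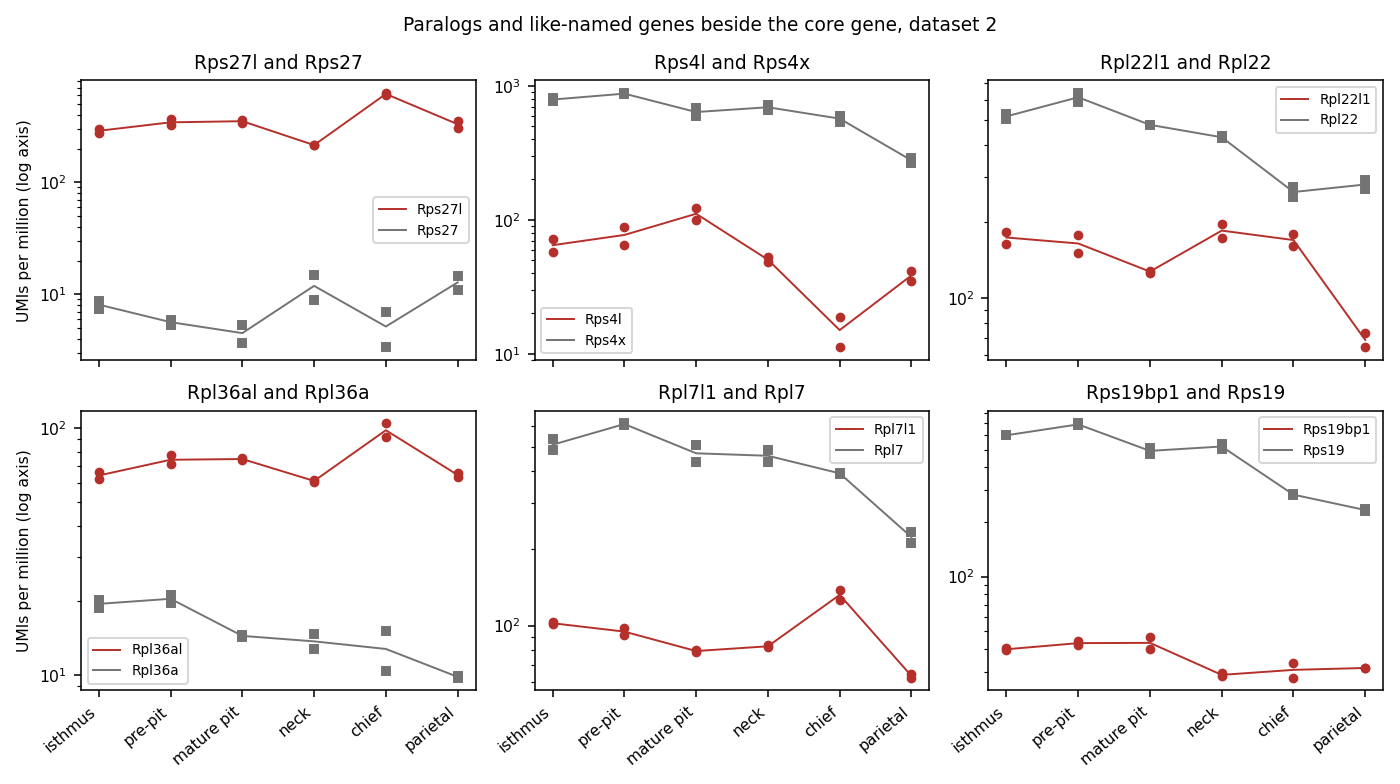
TMM-scaled CPM (log axis) of 4 paralogs and 2 like-named genes (red) beside the core gene (grey) in the 6 types of dataset 2, with a point for each pool and a line through the means. On this scale Rps27l, Rpl36al and Rpl7l1 peak in chief cells, where Rpl36al and Rpl7l1 lay below neck cells once scaled to total UMIs, and Rps4l runs from 111 in mature pit cells to 15.0 in chief cells.

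The rarest paralogs had few UMIs in all. Rpl3l, the muscle form of Rpl3, had 36 UMIs in dataset 2, and 11 in pool K and 13 in pool T of them lay in the 53 cells of the ECL-like cluster 14, where it reached 24.4 and 23.0 CPM in pools K and T. No other cluster held more than 4 UMIs of it in a pool. Rpl10l, a retrocopy known from the testis, had 64 UMIs, of which 60 lay in pool K and 4 in pool T. Rpl39l had 9 UMIs. These counts are too low for a comparison between types.

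Rps23rg1 lies at chr8:3617947-3634939 on the plus strand of GRCm39 and overlaps the lncRNA Gm64176 and the pseudogene Rps23-ps2 on the other strand. It had 100 UMIs in dataset 2, and 90 of them lay in isthmus cells. It passed the filter on low counts only through these cells, so it is described by its UMIs with no test, although it is the 1 member counted as higher against pre-pit cells and is among those counted as higher against the mean of the others. Of the 90 UMIs 89 lay in the 624 G2/M cells, which is 3.10 CPM, 1 in the 172 G1 cells and 0 in the 489 S cells. Pools K and T gave 36 and 53 of the 89. The level in G2/M cells was 18.4-fold that in G1 cells, which rests on 1 UMI in G1 cells. It was at least 18.9-fold that in S cells when these are set to 3 counts over both pools. These ratios describe UMIs summed over both pools and are no test. Rps23rg1 is also 1 of the 3 members counted as higher in G2/M than in G1 cells. Of the other epithelial types each held at most 12 G2/M cells, so they do not show whether the phase matters there. In dataset 1, 4 of its 5 UMIs over the 7 types lay in isthmus-like cells.

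The genes that make and use ribosomes were compared through lists chosen with results of these data known. Of 49 tested genes of ribosome biogenesis, 36 were called higher and 0 lower in isthmus cells against the mean of the others, with a median of 0.39, where 28.1% of all genes were called higher and 23.1% lower. Tcof1, the treacle protein of rRNA transcription, differed by 1.60 ± 0.09 (adjusted p = 6.5e-09). The snoRNP proteins Nop58 (1.12 ± 0.07, adjusted p = 9e-09), Dkc1 (1.10 ± 0.06, adjusted p = 7.3e-09) and Gar1 (1.00 ± 0.06, adjusted p = 1.2e-08) followed. Against neck cells 41 of the 49 were called higher and 0 lower (background 24.3% and 26.4%), against chief cells 32 and 1 (29.5% and 25.9%), against parietal cells 37 and 6 (36.7% and 35.2%) and against mature pit cells 21 and 3 (20.1% and 17.9%). Against pre-pit cells 11 were called higher and 3 lower (15.5% and 12.3%), where 1 member was called higher and 19 lower.

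Within the isthmus, 32 of the 49 biogenesis genes were called higher in S than in G1 cells and 0 lower, with a median of 0.42 (background 15.2% and 11.2%), while 0 members were called higher and 2 lower. Tcof1 (1.35 ± 0.12, adjusted p = 5.4e-05) and Rrp1b (1.08 ± 0.14, adjusted p = 0.00061) led the list. In G2/M against G1 cells fewer genes of the list were called higher than in S against G1 cells, but still more than were called lower (background 15.1% and 11.5%). Tcof1 was called higher there too (1.27 ± 0.12, adjusted p = 7.3e-05). Among the others called higher were Utp15 (0.66 ± 0.12, adjusted p = 0.0039), Nhp2 (0.65 ± 0.07, adjusted p = 0.00019) and Mrto4 (0.61 ± 0.12, adjusted p = 0.0072). Rrp1b was not called (0.15 ± 0.15, adjusted p = 0.55), and Nob1 and Tsr1 were called lower. In cluster 11 of the isthmus 2 genes of the list were called higher and 15 lower (background 14.6% and 14.8%). In dataset 1 the list had 42 of 49 genes called higher in isthmus-like cells and 0 lower, with a median of 0.84 (background 24.1% and 16.5%).

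Of 27 tested initiation factors, 12 (44.4%) were called higher and 2 lower in isthmus cells against the mean of the others, the comparison with 28.1% of all genes called higher and 23.1% lower. Pabpc1, the poly(A)-binding protein and itself a TOP mRNA, was higher by 0.61 ± 0.06 (adjusted p = 1.5e-06), and Eif4e, the cap-binding protein, by 0.48 ± 0.06 (adjusted p = 1.7e-05). Eif4a2, a helicase, was lower (-0.47 ± 0.07, adjusted p = 0.0001), while its relative Eif4a1 was higher by 0.48 ± 0.08 (adjusted p = 0.00012). Of 7 elongation genes 4 were called higher and 0 lower, among them Eef1g (0.41 ± 0.06, adjusted p = 8.6e-05).

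Of 8 genes of the nascent chain, which hold the signal recognition particle and its like, 1 was called higher and 5 lower in isthmus cells in the same comparison. Srp9 (-1.90 ± 0.08, adjusted p = 5.4e-10) and Srp68 (-1.80 ± 0.09, adjusted p = 1.6e-09) of the signal recognition particle were lower in isthmus than in chief cells, where 2 of the 8 were called higher and 6 lower (background 29.5% and 25.9%). Of 13 regulators of TOP mRNAs and of Myc, 4 (30.8%) were called higher and 4 lower against the mean of the others, near the background of 28.1% and 23.1%. Of these genes Mtor differed by -0.55 ± 0.06 (adjusted p = 5e-06) and Myc by 0.44 ± 0.14 (adjusted p = 0.02). Of the ribosomal proteins that the naming rule leaves out, Rack1 was called higher (0.34 ± 0.06, adjusted p = 0.00035), and Fau was not called.

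**Figure D5:**
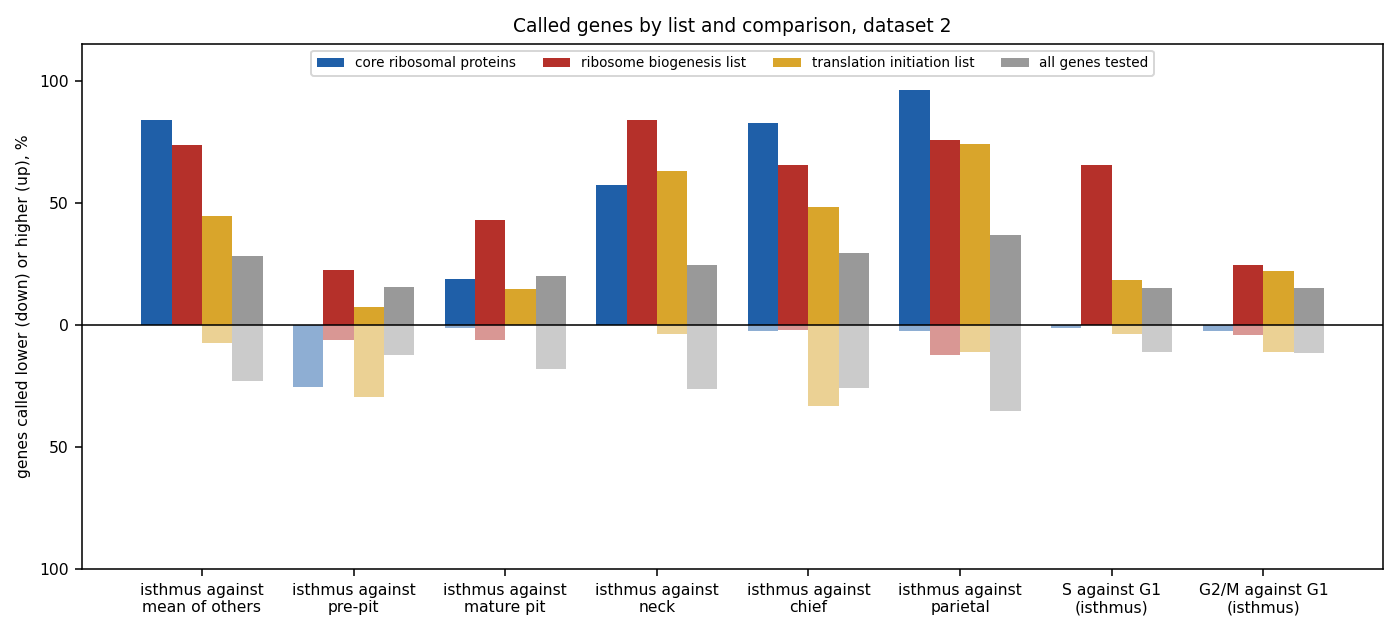
Percent of the tested genes called higher (upward bars) and lower (downward pale bars) among core members, the ribosome biogenesis list, the translation initiation list and all genes tested, in 8 comparisons of dataset 2. In S against G1 cells of the isthmus the biogenesis list stands at 65.3% higher, beside core members at 0% higher.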

How the data were processed

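Single cells of mouse stomach were measured by Quartz-Seq2 in 2 datasets. The authors deposited UMI counts for each gene name in each well, as whole numbers, aligned to GRCm39 with STAR and Gencode gene models and not normalized, and an annotation of the kept cells (at least 2500 detected genes) with Seurat clusters. In this annotation the authors also deposited the percent of mitochondrial UMIs per cell and the phase of the cell cycle. The counts were taken from the deposited count table of each dataset, which holds the same cells as the annotation. The summed UMIs of these cells equalled the annotation in all 491 cells of dataset 1 and 3993 of dataset 2. The plates share well barcodes by design, so cells were identified by plate and barcode. Doublets were not called, since a sorter placed single cells in wells.

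UMIs were summed per type and pool and tested with edgeR 4.0.16 in R 4.3.3 (TMM, filterByExpr, glmQLFit, glmQLFTest), with all types of a dataset in 1 fit. Dataset 2 had 12 sums of 2165683 to 29539575 UMIs and 6 residual degrees of freedom, dataset 1 had 14 sums of 483675 to 2362300 UMIs and 7. Phases (6 sums, 3 degrees of freedom) and clusters (28 sums, 14) had fits of their own. Contrasts with several types average them on the log2 scale. The replicate is the pool, a mix of 3 mice. All types of a pool share its mice, and over pairs of types the pools' deviations from the mean of each type had a median correlation over genes of 0.174 in dataset 2 (0.093 to 0.492 over 15 pairs of types, 14 above 0.1) and 0.0216 in dataset 1 (21 pairs, 0 above 0.1). Percent shares of UMIs on members were computed from the counts. DESeq2 1.42.0, other scalings, no filter, the pool as a block, plates as units, leaving out a pool and adding -ps names to their parents were alternatives. The tests were tested on simulated data.

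The members and lists were chosen with earlier results of these data known. Members are named if they are paralogs or like-named genes, have the 5 highest mean levels, have the 3 largest or 3 smallest called differences of a comparison (with 10 or more UMIs in each pool of the group that was higher and 1 direction in both pools), or run against most called members. Of the lists, up to 4 called genes with the largest differences are named. Genes named outside this rule were chosen after their values were seen. A few genes that this rule would name are not reported here.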

Additional observations from a re-analysis of the deposited data

Results flagged for a closer look

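The share of UMIs on members was looked at plate by plate within each type and pool of dataset 2, in 12 groups of 6 plates. In 1 group a plate lay far from the others by Dixon's criterion. In mature pit cells of pool K the highest plate had 4.01%, the nearest other plate 3.24% and the lowest 2.96%. That plate held 11 mature pit cells. Among the plates of pool K it also had the highest share in isthmus (4.69%), pre-pit (4.66%), neck (4.01%) and chief cells (1.95%). In parietal cells it had 1.89%, level with the next plate. The mature pit value is therefore not set apart from the other types of that plate, and the cause was not tested. Chance alone sets apart about 1 in 20 such groups.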

How the results depend on the processing

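The excess of the isthmus share over the other types in dataset 2 was 1.15 percentage points outside mitochondrial and the most abundant genes. The count of called members moved by over 1.5 times in 7 comparisons. These counts are of members alone, and no share of all genes in the same fit is given beside them. Against mature pit cells it was 70 with total UMIs, 70 without mitochondrial UMIs, 45 also without the most abundant genes, 30 with no filter on low counts, 28 with the pool as a replicate block and 35 with plates as units, and 13 to 25 without a pool. Lower against pre-pit cells were 1, 1, 5, 2 (no filter), 45 (block) and 49 (plates) in the same order, 44 with DESeq2 and 36 to 42 without a pool (42 without pool K, 36 without pool T), and the median member was 0.0089 with total UMIs. Against neck cells 22 were called without mitochondrial and the most abundant genes. In chief against neck cells 80 were lower with total UMIs and 80 without mitochondrial UMIs. Dataset 1 gave 34 (without pool 1) to 43 (without pool 2). For the phases there were 5 lower with the replicate block, 12 with plates and 4 to 6 without a pool (6 without pool T), with a median of 0.0211 with no filter. For cluster 11 there were 2 with no filter, 13 with plates, 3 without pool K and 9 without pool T. With total UMIs and then without mitochondrial UMIs, single members reversed: against the mean of the others Rpl36al (0.21, 0.16) and Rps27l (0.12, 0.0708), against mature pit cells Rps27l (0.0622, 0.0594), against chief cells Rpl10 (0.0336, 0.0447), Rpl36al (0.28, 0.29), Rpl41 (0.25, 0.26) and Rpl7l1 (0.51, 0.52), in chief against neck cells Rpl10 (-0.19, -0.21), Rpl36al (-0.14, -0.17), Rpl41 (-0.0671, -0.0927) and Rpl7l1 (-0.15, -0.17), and Rps29 against parietal cells with total UMIs (0.0105). The scaling moves the median of all genes with them, and the cause of the other changes was not tested. Of 859 values of named members under alternatives, 720 kept their direction and side of the threshold, 116 kept the direction but were no longer called and 23 reversed. The replicate block changed no other count by over 1.5 times. Spike-in scaling was not run, since the tables used here hold 0 spike-in rows. Depth limits the members under 10 CPM, whose counts are small in each pool, and a lone pool in a comparison is assumed to vary like the others.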

Other observations

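The -ps names that the rule leaves out were added to their parent genes as an alternative, which gave 69 members called higher and 2 lower of 88 tested in isthmus cells against the mean of the others in dataset 2, with a median of 0.31. In dataset 1, the enterocyte-like cluster 5-7 had the lowest share of UMIs on members of all clusters, 1.22% in pool 1 and 0.88% in pool 2. Cluster 14 of dataset 1, which carried markers of several cell types and was given no name, had 4.34% and 3.45%.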
